A study of Mus musculus with 15 samples.

Results

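The 8 genes described here encode chemokines that podocytes could send to leukocytes: Ccl2, Ccl7, Cxcl1, Cxcl5, Cxcl12, Cxcl14, Cxcl16 and Cx3cl1. They were taken by name from a table of 55416 genes, and each symbol matched 1 Ensembl gene. Podocytes are the epithelial cells that wrap the capillaries of the kidney's filter, and they are stretched when pressure in the glomerulus rises. Counts were compared between stretched cultures and the unstretched cultures of the same experiment.

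Chemokines are small secreted proteins that bind receptors coupled to G proteins on leukocytes and draw these cells along a gradient. The genes of the inflammatory type, such as Ccl2 and Cxcl1, are known to be switched on by NF-kB after tumour necrosis factor or interleukin-1, and their messenger RNAs are short-lived. Those of the homeostatic type, such as Cxcl12, are made without a stimulus, and podocyte Cxcl12 is known for its part in forming glomerular vessels. Cx3cl1 and Cxcl16 differ from the rest in being made as transmembrane proteins, which hold leukocytes on the cell surface until proteases of the Adam family release them.

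All 15 cultures were of SVI, a conditionally immortalised mouse podocyte line, differentiated before the cells were plated on flexible silicone membranes. Experiment 1 had 6 cultures stretched at low amplitude, labelled with a deflection of 5 to 6 mm, and 3 unstretched cultures. Experiment 2 had 3 cultures stretched at high amplitude, labelled 7 to 8 mm, and 3 unstretched cultures. No group carried a further agent or allele, and all groups share the immortalised line, so the cultures stand for 1 cell line. Nothing in the labels says that the cultures of a group were grown separately, so p-values measure the spread between these samples, which may be technical.

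Each library held between 172211836 and 396658285 gene counts. Unstretched replicate 3 of experiment 2 stood apart from its group: it lay at 31.68 on the first principal component, against 122.1 and 163.5 for the other two, and high-stretch results of the 8 genes, and of other genes that passed there, are given with and without it. The codes of the samples fall into runs of neighbours with 1 unstretched culture each, and differences within these runs are given beside the pooled ones. The 6 low-stretch differences rest on 3 unstretched cultures, so they are not 6 independent comparisons. The share of all genes with the same sign in every run is not given here. Of the podocyte markers, Synpo, Podxl and Actn4 were at 148 CPM (counts scaled to a common library size) or more on average over the 15 samples, Nphs1 did not exceed 0.985 CPM, and Tcf21 had at most 1 count. The leukocyte-defining genes Ptprc, Adgre1, Itgam and Cd3e each stayed at or below 0.0545 CPM, while Cd14, Csf1r and Cd68 of the same list averaged 14.9, 14.0 and 1.24 CPM.

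Cxcl12 was the most abundant of the 8 in every group. Levels of different genes can be compared only per length, so TPM, which are also scaled by transcript length, were used for their order. In unstretched cultures of experiment 1, Cxcl12 was at 104 ± 21.0 TPM (SD, n = 3), Cx3cl1 at 19.2 ± 2.63 TPM and Ccl2 at 13.1 ± 2.09 TPM. The next genes were Cxcl1 at 2.58 ± 0.882 TPM and Ccl7 at 1.95 ± 0.415 TPM, whose ranges overlapped. Cxcl16 followed at 0.394 ± 0.174 TPM and Cxcl5 at 0.0676 ± 0.0217 TPM, and Cxcl14 was listed at 0. Apart from Cxcl1 and Ccl7, no neighbours in this order overlapped.

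The order changed little between the groups. Cxcl12, Cx3cl1 and Ccl2 held the same 3 highest places in all 4 groups. In low-stretch cultures the TPM range of Ccl2 overlapped those of Cx3cl1 above it and Cxcl1 below it. In unstretched cultures of experiment 2 Ccl2 overlapped Cxcl1, Cxcl1 overlapped Ccl7, and Cxcl5, listed at 0 in 1 culture, met Cxcl14. In high-stretch cultures Ccl7, at 0.984 ± 0.501 TPM, and Cxcl1, at 0.903 ± 0.341 TPM, changed places with overlapping ranges, and Cxcl1 also overlapped Cxcl16.

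**Figure D1:**
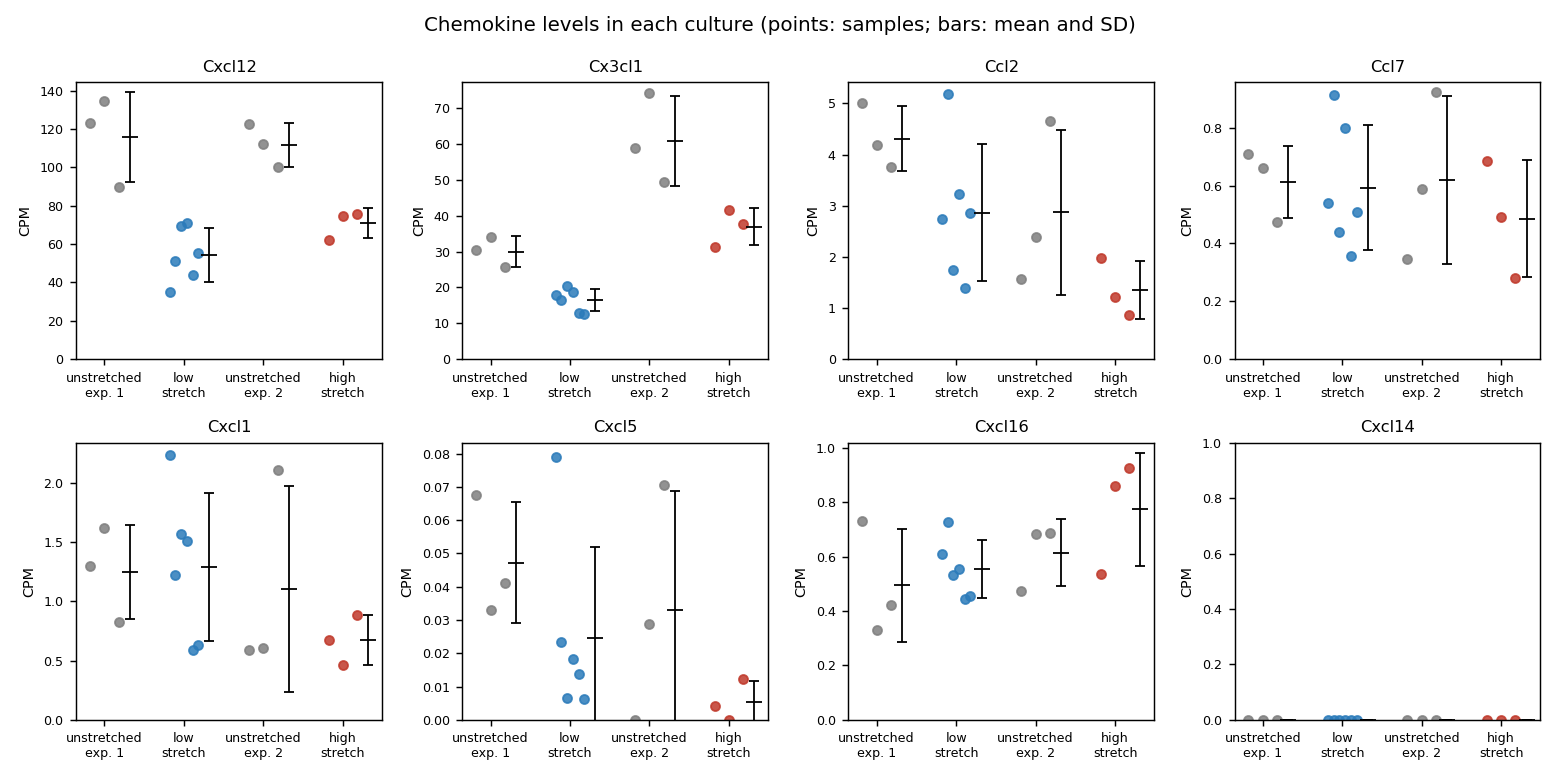
Level of each chemokine in CPM (vertical axis, linear from 0, scaled per gene) in the 4 groups, with 1 point per culture and bars for the mean and SD. The points of Cxcl12 and Cx3cl1 separate stretched from unstretched cultures in both experiments, those of the other genes with counts overlap, and Cxcl14 lies at 0 throughout.

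Cxcl12 and Cx3cl1 fell with low stretch, and no other chemokine of the 8 passed the test. Of the 7 that could be tested, 2 had an adjusted p under 0.05 with edgeR's quasi-likelihood test and Benjamini-Hochberg adjustment over all genes, both lower. The background was 3.6% of all 21672 genes tested passing lower and 5.45% passing in either direction. The median log2 fold change of the 7 was -0.62, against 0.0077 over all genes tested. In bulk cultures, fewer cells that make a transcript and less of it per cell cannot be told apart.

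Cxcl12, the ligand of Cxcr4 and Ackr3, was at 123, 135 and 89.8 CPM in the 3 unstretched cultures of experiment 1. In the 6 low-stretch cultures it lay between 35.2 and 70.9 CPM, with a median of 53.2 CPM. All stretched cultures were below all unstretched ones, and the lowest was replicate 1. The log2 fold change was -1.12 (SE 0.21, 95% interval -1.58 to -0.67, adjusted p = 0.013, edgeR), or 0.459-fold. Within the runs of neighbouring codes Cxcl12 was lower in 6 of 6 stretched cultures, by log2 differences of -1.81 to -0.70.

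Cx3cl1, the membrane-bound ligand of Cx3cr1, was at 30.4, 34.0 and 25.6 CPM in unstretched cultures. It lay between 12.6 and 20.4 CPM in the low-stretch cultures, with a median of 17.2 CPM, again with no overlap. This was a log2 fold change of -0.89 (SE 0.16, 95% interval -1.25 to -0.54, adjusted p = 0.012, edgeR), or 0.538-fold. Within runs it was lower in 6 of 6 cultures, with log2 differences of -1.02 to -0.74, a narrower range than that of Cxcl12. Groups that do not overlap, with the stretched one lower, made up 6.84% of all genes tested. Without unstretched replicate 1 neither gene passed: the adjusted p rose to 0.0572 for Cxcl12 and 0.0519 for Cx3cl1, at log2 fold changes of -1.09 and -0.89.

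The inflammatory ligands did not pass after low stretch. Ccl2, which attracts monocytes through Ccr2, was at 5.01, 4.18 and 3.75 CPM in unstretched cultures and between 1.40 and 5.19 CPM in low-stretch cultures, with a median of 2.80 CPM. Low-stretch replicate 2 had the highest value of the 9 cultures, and the other 5 were below every unstretched one. Its change of -0.62 on the log2 scale (95% interval -1.35 to 0.11, adjusted p = 0.285, edgeR) included no change. Ccl7, another monocyte attractant, was at 0.709, 0.661 and 0.473 CPM in unstretched cultures and between 0.357 and 0.912 CPM in stretched ones, a log2 fold change of -0.08 (95% interval -0.72 to 0.56, adjusted p = 0.894, edgeR). The 2 genes lie next to each other in the GENCODE M21 annotation, with 0 protein-coding genes between them. That annotation also places Gm17268 over Ccl2 on the opposite strand and Zmynd15 over Cxcl16, and since the strand setting of the counting is not given in the sources used here, their reads cannot be told apart.

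The neutrophil attractants, ligands of Cxcr2, scattered within the stretched group. Cxcl1 was at 1.30, 1.62 and 0.826 CPM in unstretched cultures and between 0.588 and 2.24 CPM in low-stretch cultures, with the highest level in replicate 1 and the lowest in replicates 5 and 6, which share a run. Its log2 fold change was 0.02 (95% interval -0.88 to 0.92, adjusted p = 0.982, edgeR), and 5 of 6 within-run differences were negative, from -0.48 to 0.78. Cxcl5 rested on 11 to 23 counts in unstretched and 2 to 25 counts in low-stretch cultures, with 25 of them in replicate 1. Its log2 fold change was -0.94 (95% interval -2.39 to 0.51, adjusted p = 0.412, edgeR), an interval too wide to place it.

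Cxcl16, the transmembrane ligand of Cxcr6, was at 0.729, 0.332 and 0.422 CPM in unstretched cultures and between 0.443 and 0.728 CPM in low-stretch cultures. Its change of 0.14 on the log2 scale did not pass (95% interval -0.41 to 0.70, adjusted p = 0.769, edgeR). Both transmembrane chemokines were thus measured in the same libraries, and only Cx3cl1 passed; the difference between the 2 genes was not tested. Cxcl14, an epithelial chemokine, had 0 counts in each of the 15 libraries, which allows up to 3 counts, or 0.00756 to 0.0174 CPM depending on depth. That limit covers counting error only.

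**Figure D2:**
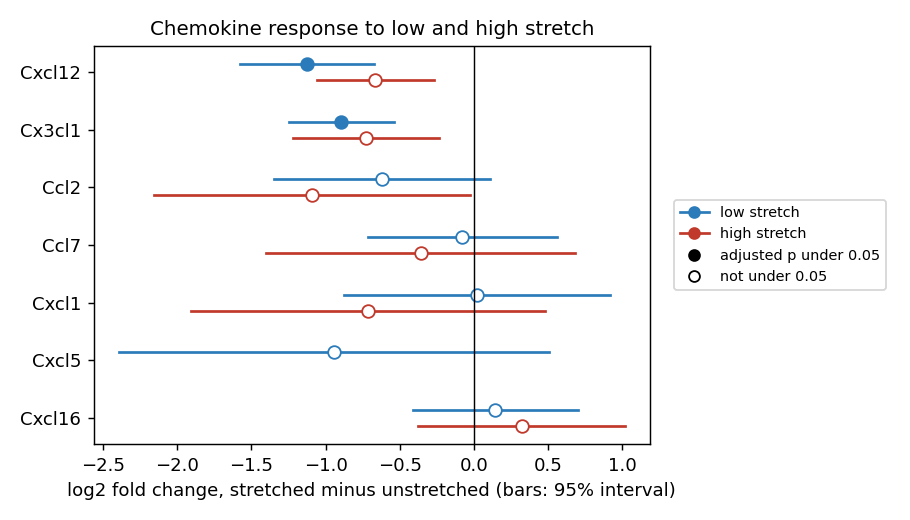
Log2 fold change of each tested chemokine, stretched minus unstretched (horizontal axis), for low and high stretch, with bars for the 95% interval and filled points for an adjusted p under 0.05. Only Cxcl12 and Cx3cl1 at low stretch are filled. The high-stretch intervals of both, and that of Ccl2, also lie below 0. Cxcl5 had too few counts to be tested at high stretch.

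At high stretch no chemokine of the 8 passed, although Cxcl12 and Cx3cl1 were again lower in every stretched culture. With edgeR, 0 of the 6 tested had an adjusted p under 0.05, 3 had an unadjusted p under 0.05, and DESeq2 also called 0. The background was 3.47% of 18524 genes tested with an adjusted p under 0.05 and 14.6% with an unadjusted one. The median log2 fold change of the 6 was -0.69, against -0.02 over all genes tested.

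Cxcl12 was at 123, 112 and 100 CPM in the unstretched cultures of experiment 2. The 3 high-stretch cultures were at 61.9, 74.8 and 75.9 CPM, all below the unstretched ones. At high stretch the log2 fold change was -0.66 (SE 0.17, 95% interval -1.06 to -0.27, adjusted p = 0.0851, edgeR), or 0.631-fold, and the 3 within-run differences ran from -0.99 to -0.40. Cx3cl1 was at 59.0, 74.2 and 49.3 CPM in unstretched and at 31.3, 41.5 and 37.8 CPM in high-stretch cultures. Its log2 fold change was -0.73 (SE 0.21, 95% interval -1.22 to -0.24, adjusted p = 0.132, edgeR), or 0.604-fold, with within-run differences of -0.91 to -0.38. Neither pair of groups overlapped, as in 10.3% of all genes tested with the stretched group lower. Without unstretched replicate 3, the library that stood apart, both passed in edgeR, with log2 fold changes of -0.72 (adjusted p = 0.0235) for Cxcl12 and -0.84 (adjusted p = 0.0211) for Cx3cl1. With the runs as a block Cx3cl1 also passed (adjusted p = 0.0397), and Cxcl12 did not (adjusted p = 0.0665, edgeR). The share of all genes passing with that block is not given here. Alternative fits at high stretch called from 14 to 1546 genes, against 643 in the unblocked edgeR fit.

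The values of the inflammatory ligands at high stretch depended on the same library. Ccl2 was at 1.56, 2.38 and 4.66 CPM in unstretched cultures, highest in replicate 3, and at 1.97, 1.22 and 0.855 CPM in high-stretch cultures. The groups overlapped, and the log2 fold change was -1.09 (95% interval -2.15 to -0.02, adjusted p = 0.329, edgeR). With the runs as a block Ccl2 passed (adjusted p = 0.0467, edgeR), where the share of all genes passing is not given here. However, 1 of the 3 within-run differences was positive (0.33), and the lowest was -2.44. Without unstretched replicate 3 the log2 fold change was -0.53 (adjusted p = 0.408, edgeR).

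Cxcl1 was at 0.593 and 0.604 CPM in unstretched replicates 1 and 2 and at 2.11 CPM in replicate 3, against 0.678, 0.465 and 0.884 CPM in high-stretch cultures. Its log2 fold change of -0.72 (adjusted p = 0.665, edgeR) became 0.19 without replicate 3. Ccl7 showed the same pattern, at 0.347, 0.590 and 0.925 CPM in unstretched and 0.686, 0.49 and 0.280 CPM in high-stretch cultures. For Ccl7 the log2 fold change was -0.36 (adjusted p = 0.855, edgeR), and 0.07 without replicate 3. Cxcl5 had 0, 4 and 19 counts in unstretched and 1, 0 and 3 counts in high-stretch cultures and was not tested. Cxcl16 was at 0.473, 0.684 and 0.688 CPM in unstretched and at 0.537, 0.861 and 0.925 CPM in high-stretch cultures, with a log2 fold change of 0.32 (95% interval -0.37 to 1.02, adjusted p = 0.775, edgeR). It was higher in 3 of 3 runs, by 0.18 to 0.42, and without unstretched replicate 3 its log2 fold change was 0.43 (adjusted p = 0.467, edgeR).

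**Figure D3:**
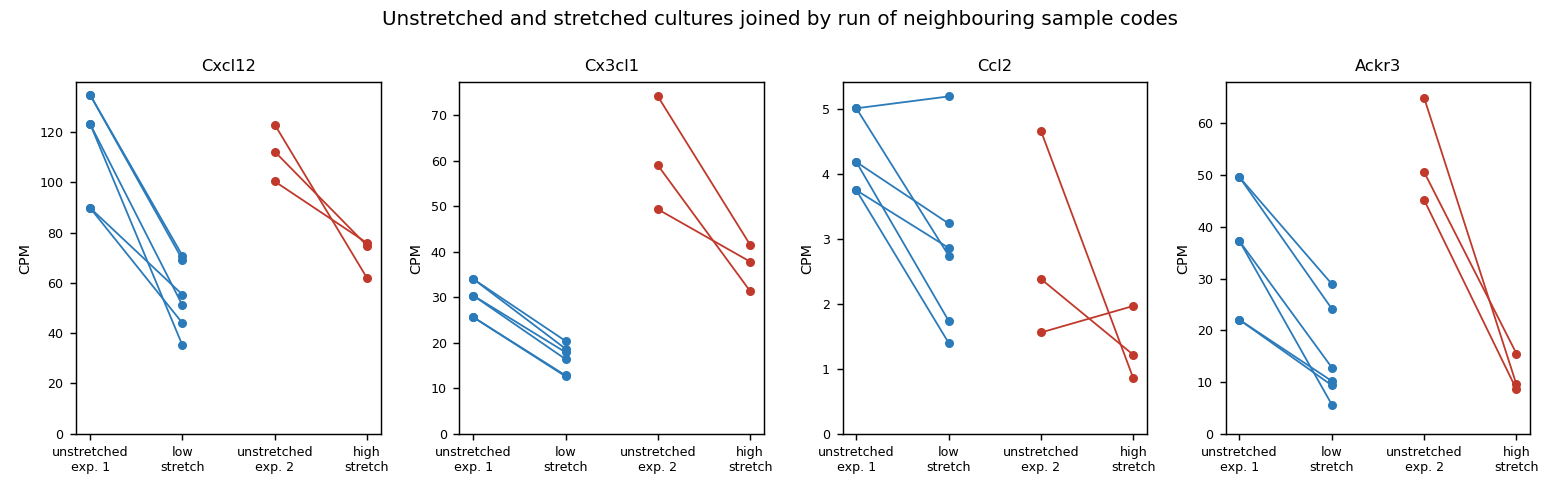
CPM of Cxcl12, Cx3cl1, Ccl2 and Ackr3 (vertical axes, linear from 0) in unstretched and stretched cultures, with a line joining each stretched culture to the unstretched culture of its run. All 9 lines of Cxcl12, Cx3cl1 and Ackr3 go down, and those of Ccl2 go down in 5 of 6 low-stretch and 2 of 3 high-stretch cultures.

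The responses to the 2 amplitudes could not be told apart for any of these genes. In a fit of all 15 samples, 0 of 7 chemokines passed the test of the difference between the high-stretch and the low-stretch effect with edgeR, 0 had an unadjusted p under 0.05, and DESeq2 called 0. The background was 0.0% of 22015 genes with an adjusted p under 0.05 and 2.48% with an unadjusted one. The difference, as the high-stretch log2 fold change minus the low-stretch one, was 0.44 for Cxcl12 (95% interval -0.19 to 1.06) and 0.14 for Cx3cl1 (95% interval -0.44 to 0.72). It was -0.49 for Ccl2 (95% interval -1.72 to 0.74). Without unstretched replicate 3 of experiment 2 these became 0.41, 0.061 and 0.091. Since each amplitude was used in 1 experiment, amplitude and experiment cannot be told apart here.

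Without stretch, Cx3cl1 was the only one of the 8 that passed between the experiments. It was at 60.8 ± 12.5 CPM (SD, n = 3) in unstretched cultures of experiment 2 and at 30.002 ± 4.21 CPM in those of experiment 1, a log2 difference of 1.01 (SE 0.22, adjusted p = 0.00607, edgeR). Of the 7 tested, 1 passed, against a background of 62.5% of 20707 genes tested. Of the 8 other chemokines tested, Ccl25 and Ccl28 also passed, both lower in experiment 2, with log2 differences of -1.55 and -3.19 (adjusted p = 0.00533 for each, edgeR). The high-stretch level of Cx3cl1, 36.9 ± 5.15 CPM, was above the unstretched mean of experiment 1, with overlapping ranges, while all 3 high-stretch cultures were below the unstretched ones of their own experiment. Cxcl12 stood at 112 ± 11.3 and 116 ± 23.3 CPM, a log2 difference of -0.06 (95% interval -0.53 to 0.40, adjusted p = 0.793, edgeR). Per length, the deposited TPM of Cx3cl1 differed less, at 24.7 ± 1.99 and 19.2 ± 2.63, and that of Cxcl12 was lower in experiment 2, at 72.3 ± 8.36 against 104 ± 21.0. Without unstretched replicate 3 of experiment 2, Ccl2 and Cxcl1 also passed as lower in experiment 2, with log2 differences of -1.17 (adjusted p = 0.00312) and -1.10 (adjusted p = 0.0158, edgeR), against -0.61 and -0.20 with it, and Cx3cl1 was at 1.11 (adjusted p = 0.000445, edgeR).

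Some chemokines moved together from culture to culture. After the mean of each experiment was subtracted, log2 CPM over the 15 samples gave Pearson's r = 0.863 for Cxcl12 with Cx3cl1 and r = 0.861 for Ccl2 with Ccl7. The neutrophil attractants Cxcl1 and Cxcl5 had r = 0.65. Other pairs ran from r = -0.288 for Cxcl12 with Cxcl16 to r = 0.627 for Ccl2 with Cxcl5, close to the value for Cxcl1 with Cxcl5. Among them Ccl7 with Cxcl1 had r = 0.472, Cx3cl1 with Ccl2 r = 0.456, and Cxcl12 had r = 0.432 with Ccl2 and r = 0.113 with Cxcl1. These are descriptions over samples that share their library with every gene, and the stretch response itself enters them.

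Among 12935 genes with a mean of at least 1 CPM, those most like Cxcl12 by the same measure were Oas1c (r = 0.933), Csf1 (r = 0.932), which encodes a macrophage growth factor, and Dnaaf3 (r = 0.932). Those most like Cx3cl1 were Sh3tc1 (r = 0.958), Gpr39 (r = 0.934) and Krt7 (r = 0.933). For Ccl2 they were Pawr (r = 0.859), Gnai1 (r = 0.828) and Npy2r (r = 0.795), and for Cxcl1 they were Chmp4c (r = 0.903), Zic5 (r = 0.894) and Il1rap (r = 0.875), the last a subunit of the interleukin-1 receptor. The highest values were chosen out of all genes, so their size is no test.

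The 4 annotated Cxcl12 transcripts with TPM values let the forms of the protein be followed. Cxcl12-202 encodes the alpha form of 89 residues, Cxcl12-203 the beta form of 93 and Cxcl12-201 the gamma form of 119, and the coding parts share 267 bases. The ends of the coding parts are shown because they are what separates the forms, from the GENCODE M21 transcripts, without the stop codon, with the last 30 shared bases in lower case and the bases of each longer form in capitals.
Cxcl12-202: caagagtacctggagaaagctttaaacaag
Cxcl12-203: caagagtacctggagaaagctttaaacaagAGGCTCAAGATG
Cxcl12-201: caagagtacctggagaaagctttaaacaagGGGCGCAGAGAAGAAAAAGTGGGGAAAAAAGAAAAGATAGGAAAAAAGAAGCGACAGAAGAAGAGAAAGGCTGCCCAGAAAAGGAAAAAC
The beta form adds 4 residues and the gamma form 30, whose codons are rich in those for lysine and arginine; the tail of the gamma form is known to bind heparan sulfate.

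The alpha form made up most of Cxcl12 in all groups, and the share of the beta transcript was higher in every stretched culture. Cxcl12-203 held 19.1%, 19.6% and 17.6% of the gene's TPM in unstretched cultures of experiment 1 and between 20.02% and 21.9% in the 6 low-stretch cultures. In experiment 2 it held 15.6%, 15.5% and 17.9% in unstretched and 20.3%, 20.4% and 19.9% in high-stretch cultures. Neither pair of groups overlapped, as in 2.82% of all transcripts tested at low and 7.74% at high stretch with the stretched group's share higher, and limma's test of the log2 ratio of the transcript to the rest of its gene did not pass after adjustment. The change in that log2 ratio was 0.21 at low stretch (95% interval 0.02 to 0.39, adjusted p = 0.451, limma) and 0.38 at high stretch (95% interval 0.05 to 0.71, adjusted p = 0.573, limma), and 0.46 without unstretched replicate 3 (adjusted p = 0.317, limma).

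In TPM, the beta transcript itself was lower after stretch, at 9.18 ± 2.11 against 19.6 ± 4.93 in experiment 1 and at 8.36 ± 0.225 against 11.9 ± 2.20 in experiment 2. The alpha transcript went from 75.4 ± 14.96 to 31.3 ± 7.44 TPM at low stretch and from 58.5 ± 5.56 to 32.0 ± 1.43 TPM at high stretch. Its share was 72.7 ± 0.773% without and 71.5 ± 1.30% with low stretch, and 81.0 ± 2.44% without and 77.3 ± 0.426% with high stretch. The gamma transcript held 4.79 ± 0.489% and 4.36 ± 0.499% of the TPM in experiment 1, and 1.79 ± 0.582% and 1.77 ± 0.213% in experiment 2, without and with stretch.

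Of all transcripts of the 8 genes, 5 entered the usage test at low stretch and 4 at high stretch, and 0 passed in either. Over all transcripts tested, limma called 0.0145% at low stretch and 0.0% at high stretch. At an unadjusted p under 0.05 the beta transcript of Cxcl12 was 1 of the 5 and 1 of the 4, where 10.0% and 8.15% of all transcripts tested had one. The main transcript of Cxcl1, Cxcl1-201, held 84.6 ± 4.10% of its gene without and 85.9 ± 2.65% with low stretch, and that of Cx3cl1, Cx3cl1-201, held 92.6 ± 1.54% and 93.6 ± 1.64%.

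**Figure D4:**
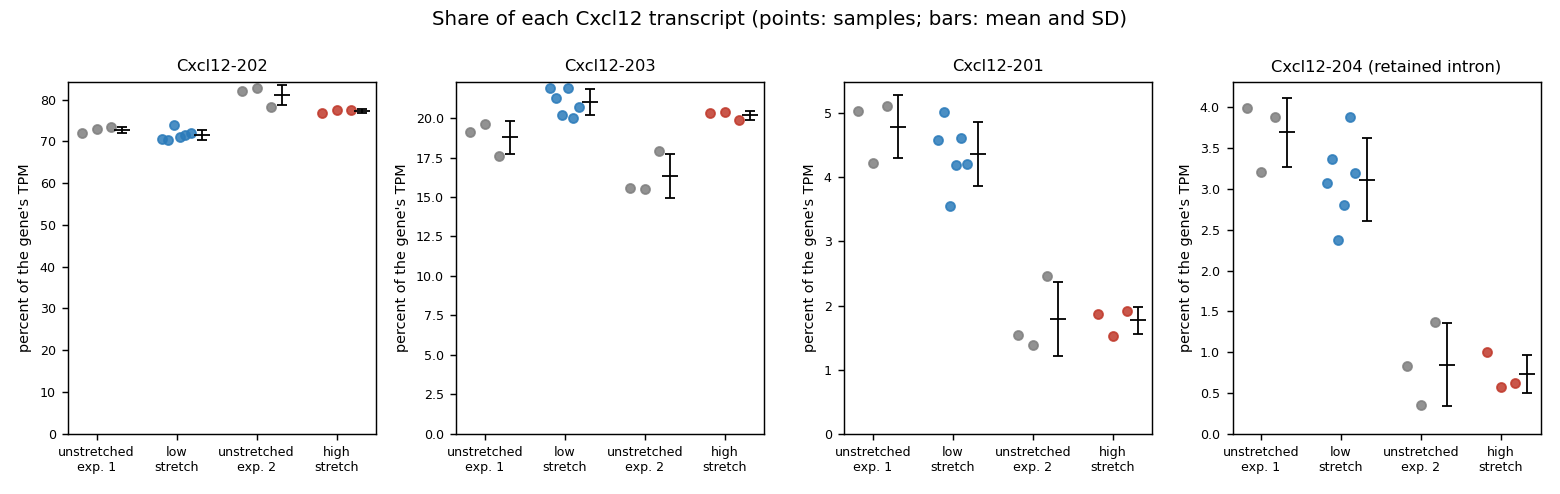
Share of each Cxcl12 transcript in percent of the gene's TPM (vertical axes, linear from 0, scaled per transcript) in the 4 groups, with 1 point per culture and bars for the mean and SD. Cxcl12-203 lies between 19.9% and 21.9% in stretched cultures and between 15.5% and 19.6% in unstretched ones, and Cxcl12-201 and the retained-intron transcript Cxcl12-204 hold smaller shares in experiment 2.

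Promoter windows of 250 bases before the RefSeq start were at hand for 4 of the 8 genes, Cxcl1, Cxcl12, Cx3cl1 and Cxcl14, on GRCm38.p6. Those of Cxcl1 and Cxcl12 are shown because they stand for an inflammatory and a homeostatic chemokine with different values here, with matches to the kappa B motif in capitals.
Cxcl1, chr5:90890995-90891244, plus strand: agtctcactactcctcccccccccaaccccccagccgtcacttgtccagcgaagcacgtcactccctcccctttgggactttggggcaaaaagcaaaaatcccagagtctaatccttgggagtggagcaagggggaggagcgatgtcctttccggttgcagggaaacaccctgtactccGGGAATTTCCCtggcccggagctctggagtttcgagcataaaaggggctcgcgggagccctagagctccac
Cxcl12, chr6:117168285-117168534, plus strand: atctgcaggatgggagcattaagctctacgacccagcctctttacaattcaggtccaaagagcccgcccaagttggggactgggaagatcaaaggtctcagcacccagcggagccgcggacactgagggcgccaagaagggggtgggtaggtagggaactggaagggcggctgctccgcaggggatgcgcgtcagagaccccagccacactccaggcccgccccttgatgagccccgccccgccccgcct
The capitals in the Cxcl1 window are 2 overlapping kappa B matches of 10 bases on opposite strands, from 71 to 61 bases before the start. On both strands, the kappa B motif was found in 7.251% of 32851 windows of this length, the AP-1 motif TGANTCA in 6.749%, and the TEAD motif GGAATG in 12.642%. The windows of Cxcl12, Cx3cl1 and Cxcl14 held none of these letters, which describes the sequence in these windows and no more.

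In gene counts, the receptors on which these ligands act were at or near 0, and the exception was Ackr3. Ccr2, Cxcr2 and Cx3cr1 had at most 2, 2 and 17 counts in any library, Cxcr4 at most 20 and Cxcr6 at most 47. Of the 23 chemokine receptors listed, 17 stayed under 0.1 CPM in every sample. The deposited TPM differed from the counts for some: Cxcr2 was at 0.573 ± 0.0909 TPM in unstretched and 0.471 ± 0.0887 TPM in low-stretch cultures of experiment 1, above Cxcl16 at 0.394 and 0.434 TPM, and Xcr1, with at most 5 counts, reached 0.375 TPM. Which of the measures is nearer to the transcript level of these receptors was not tested. Ackr3, an atypical receptor that takes up Cxcl12 without G protein signalling, averaged 26.3 CPM over the 15 samples.

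Ackr3 fell at high stretch. It was at 64.9, 50.6 and 45.2 CPM in unstretched cultures of experiment 2 and at 9.54, 15.5 and 8.59 CPM in high-stretch cultures. These groups did not overlap, as in 10.3% of all genes tested with the stretched group lower. The log2 fold change was -2.26 (SE 0.29, 95% interval -2.92 to -1.59, adjusted p = 0.00877, edgeR), and it was lower in 3 of 3 runs. The call was lost without high-stretch replicate 1 (adjusted p = 0.0646) or replicate 3 (adjusted p = 0.0651), and without unstretched replicate 3 the log2 fold change was -2.36 (adjusted p = 0.000691, edgeR). In experiment 1 it was at 37.2, 22.0 and 49.6 CPM in unstretched cultures and at 5.64 to 28.9 CPM in low-stretch cultures, with a median of 11.5 CPM. These groups overlapped, and the log2 fold change of -1.28 (95% interval -2.26 to -0.29, adjusted p = 0.116, edgeR) did not pass. Within runs Ackr3 was lower in 6 of 6 low-stretch cultures, by -2.72 to -0.78, and with the runs as a block it passed (adjusted p = 0.00131, edgeR). The share of all genes passing with that block is not given here. Alternative fits at low stretch called from 220 to 6106 genes, against 1181 in the unblocked edgeR fit. Cxcl12 and Ackr3, a receptor for it, were thus both lower in 9 of 9 stretched cultures than in the unstretched culture of their run. So were other listed genes, Relb and Timp3 among them, and the share over all genes is not given here.

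The other receptors that passed were at low levels. Of 7 receptors tested at low stretch and 5 at high stretch, 2 passed in each, all lower. Over all genes tested, 3.6% passed lower at low stretch and 3.47% passed in either direction at high stretch. Ccr10, a receptor for Ccl27, was at 0.290 ± 0.0303 CPM in unstretched and 0.147 ± 0.0424 CPM in low-stretch cultures, a log2 fold change of -0.999 (adjusted p = 0.0419, edgeR), and at high stretch it was -0.82 (adjusted p = 0.256). Ccrl2, a receptor that binds the attractant chemerin without signalling, had log2 fold changes of -1.71 at low stretch (adjusted p = 0.0403) and -2.38 at high stretch (adjusted p = 0.0424, edgeR), from 3 to 67 counts per library. Leaving out 1 sample at a time, Ccr10 passed in 2 of 9 fits, and Ccrl2 in 3 of 9 at low and 1 of 6 at high stretch, the fit without unstretched replicate 3 (log2 fold change -2.19, adjusted p = 0.0314, edgeR). Ackr4, another scavenging receptor, did not exceed 0.280 CPM, with values of 0.215 ± 0.0621 and 0.189 ± 0.0751 CPM in experiment 1 and 0.105 ± 0.0283 and 0.0977 ± 0.0447 CPM in experiment 2, without and with stretch.

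Most of the 30 other chemokines listed were at or near 0, and 22 stayed under 0.1 CPM in every sample. Ccl5, Cxcl2 and Cxcl9, which often accompany the inflammatory ligands, had at most 6, 1 and 0 counts in any library. Cxcl10, another inflammatory chemokine, had more, with 25 to 168 counts per library. It was lower within runs in 6 of 6 low-stretch and 3 of 3 high-stretch cultures and did not pass. Of the 8 other chemokines tested at low stretch 1 passed, lower, where 3.6% of all genes tested did. Of the 6 tested at high stretch 0 passed with edgeR. An unadjusted p under 0.05 was found for 3 of them, where 14.6% of all genes tested had one. The one that passed was Ccl20, a ligand of Ccr6, with 11 to 41 counts in unstretched and 1 to 9 in low-stretch cultures. With low stretch its log2 fold change was -2.73 (SE 0.56, adjusted p = 0.0222, edgeR), and 1 low-stretch culture overlapped the unstretched range; the call held in 6 of 9 fits that left out 1 sample.

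The 3 other chemokines with the highest means were Ccl17, Ccl27a and Ccl25, ligands of Ccr4, Ccr10 and Ccr9. Ccl17 was at 4.00, 8.80 and 3.71 CPM in unstretched and 1.68 to 4.15 CPM in low-stretch cultures, and at 12.4, 15.2 and 5.42 CPM in unstretched and 4.76, 8.09 and 4.27 CPM in high-stretch cultures. It was lower within runs in 6 of 6 and 3 of 3 cultures, with adjusted p = 0.119 and 0.355 (edgeR). Ccl27a was at 5.05 ± 0.906 and 4.13 ± 0.598 CPM in experiment 1 and 7.67 ± 1.78 and 5.01 ± 0.968 CPM in experiment 2, without and with stretch. Ccl25 was at 5.76 ± 0.645 and 5.76 ± 0.802 CPM in experiment 1 and 1.99 ± 0.628 and 2.85 ± 0.512 CPM in experiment 2.

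Among the regulators of NF-kB, the pathway behind inflammatory chemokine genes, 1 gene passed as higher at both amplitudes. Tnfaip3 encodes A20, an enzyme that edits ubiquitin chains and dampens NF-kB signalling. It was at 16.4, 22.6 and 10.7 CPM in unstretched and 23.2 to 60.9 CPM in low-stretch cultures, a log2 fold change of 1.37 (SE 0.35, adjusted p = 0.0473, edgeR). It was at 13.8, 19.2 and 16.0 CPM in unstretched and 88.4, 57.4 and 64.1 CPM in high-stretch cultures, a log2 fold change of 2.09 (SE 0.24, adjusted p = 0.00641, edgeR). Within runs Tnfaip3 was higher in all 9 stretched cultures. Leaving out 1 sample at a time, it passed in 2 of 9 fits at low stretch and 5 of 6 at high stretch, where it was lost without high-stretch replicate 3 (adjusted p = 0.0544) and was 2.10 without unstretched replicate 3 (adjusted p = 0.000933, edgeR).

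Of the 18 genes of NF-kB and of the decay of chemokine messenger RNAs, all were tested, and besides Tnfaip3 only Bcl3 passed. Over all genes tested, 5.45% passed at low and 3.47% at high stretch. Without passing, Ikbkb and Ikbkg were higher within runs in 6 of 6 low-stretch and 3 of 3 high-stretch cultures. Relb, Zfp36, Zfp36l1 and Zc3h12a were lower in 6 of 6 and 3 of 3, also without passing. Bcl3, a nuclear member of the IkB family, was at 1.05 ± 0.0381 CPM in unstretched and 0.352 ± 0.138 CPM in high-stretch cultures, a log2 fold change of -1.59 (adjusted p = 0.0424, edgeR), and it passed in 2 of 6 fits that left out 1 sample, 1 of them without unstretched replicate 3 (-1.57, adjusted p = 0.0184). At low stretch its log2 fold change was -0.87 (adjusted p = 0.0821, edgeR). Within runs Bcl3 was lower in 6 of 6 low-stretch cultures, by -1.14 to -0.56, and it passed there with the runs as a block (adjusted p = 0.000952, edgeR) and with DESeq2 (adjusted p = 0.0184). The shares of all genes passing in those fits are not given here. Nfkbia, an immediate target of NF-kB, was at 13.2 ± 0.215 and 13.2 ± 1.79 CPM in experiment 1 and at 25.8 ± 5.49 and 20.6 ± 1.41 CPM in experiment 2, without and with stretch, and did not pass (adjusted p = 0.920 and 0.605, edgeR). Zc3h12a, a ribonuclease that degrades inflammatory transcripts, was at 8.71 ± 0.860 and 7.30 ± 1.26 CPM, and at 11.003 ± 1.56 and 8.52 ± 0.370 CPM, and did not pass either (adjusted p = 0.270 and 0.472, edgeR). These 2 were picked out for their role after their values had been seen.

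Transcripts of the cytokines that induce chemokines were at few counts, while those of their receptors were well measured. Tnf, Il1b and Il6 had at most 4, 3 and 5 counts in any library. Il1a, an interleukin-1, had 23 to 32 counts in unstretched and 11 to 28 in low-stretch cultures, lower within runs in 6 of 6 by -1.02 to -0.054, with a log2 fold change of -0.60 that did not pass (adjusted p = 0.325, edgeR), and at most 9 counts in experiment 2. In contrast, Tnfrsf1a, the main receptor for tumour necrosis factor, averaged 220 CPM and Il1r1 8.54 CPM. Of 12 inducers and receptors tested at low stretch 1 passed, and of 11 at high stretch 0 passed with edgeR, with 1 at an unadjusted p under 0.05. Over all genes tested, 5.45% passed at low and 3.47% at high stretch, and 14.6% had an unadjusted p under 0.05 at high stretch. Tlr2, a receptor for bacterial lipoproteins, was at 11.2, 10.5 and 9.36 CPM in unstretched and 14.5 to 21.4 CPM in low-stretch cultures. Its log2 fold change at low stretch was 0.68 (SE 0.13, adjusted p = 0.016, edgeR) and 0.46 (adjusted p = 0.334, edgeR) at high stretch, and the low-stretch call held in 7 of 9 fits that left out 1 sample.

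Of the 6 proteases and protease inhibitors that act on chemokines, 5 were tested in each comparison and 0 passed with edgeR. An unadjusted p under 0.05 was found for 1 at low and 2 at high stretch. Over all genes tested that share was 14.6% at high stretch, and it is not given here for low stretch. Adam10 and Adam17, which cut Cx3cl1 and Cxcl16 from the surface, were present throughout. Adam10 was at 192 ± 38.9 and 182 ± 27.2 CPM in experiment 1 and at 53.9 ± 27.2 and 42.7 ± 11.8 CPM in experiment 2, without and with stretch. Adam17 was at 60.4 ± 6.14 and 56.7 ± 4.35 CPM, and at 21.4 ± 9.29 and 17.9 ± 5.17 CPM.

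**Figure D5:**
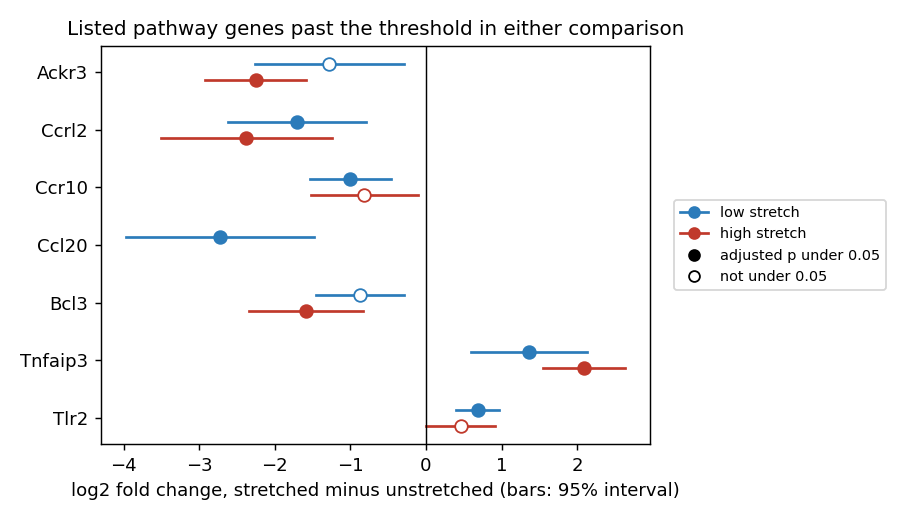
Log2 fold change, stretched minus unstretched (horizontal axis), of the listed receptors, other chemokines, NF-kB genes and inducers that passed in at least 1 comparison, with bars for the 95% interval and filled points for an adjusted p under 0.05. Ccrl2 and Tnfaip3 are filled at both amplitudes, and Ccl20 had too few counts to be tested at high stretch.

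Markers of other cell types moved along with the chemokines in part, and their part in the results was not tested. The background for calls on the marker lists was 5.45% of all genes tested at low and 3.47% at high stretch. The summed level of the 10 leukocyte markers was between 31.2 and 34.9 CPM in unstretched and between 18.7 and 27.3 CPM in low-stretch cultures, and between 39.5 and 47.4 CPM and between 23.7 and 34.7 CPM in experiment 2. Of that list 1 gene passed in each comparison, Csf1r, the receptor for the growth factor encoded by Csf1, with log2 fold changes of -1.51 (adjusted p = 0.00739) and -2.02 (adjusted p = 0.00808, edgeR). Its mean went from 23.4 to 8.37 CPM at low and from 23.8 to 5.88 CPM at high stretch, while the defining genes were at or near 0 as given above. Cd14, the other abundant gene of the list, went the other way without passing: it was at 8.10 ± 2.19 and 13.3 ± 3.44 CPM in experiment 1 and at 17.6 ± 4.25 and 22.0 ± 3.90 CPM in experiment 2, higher within runs in 9 of 9 stretched cultures (adjusted p = 0.122 and 0.697, edgeR). Cd68 was at 1.14 ± 0.0665 and 1.07 ± 0.0849 CPM in experiment 1 and at 1.04 ± 0.260 and 1.89 ± 0.252 CPM in experiment 2 (adjusted p = 0.617 and 0.165, edgeR). Of 10 podocyte markers, 1 passed, Wt1 at high stretch, from 2.81 ± 1.83 to 0.548 ± 0.0932 CPM, a log2 fold change of -2.36 (adjusted p = 0.0311, edgeR), and -1.67 without unstretched replicate 3 (adjusted p = 0.00358). At low stretch 6 of 9 tested were higher and 3 lower, and at high stretch 2 of 8 were higher and 6 lower. Actn4 was higher within runs in 6 of 6 and 3 of 3 stretched cultures, and Podxl lower. The podocyte list summed to 1190 to 1323 CPM in unstretched and 1308 to 1577 CPM in low-stretch cultures. In experiment 2 it summed to 1683 to 2572 and 2234 to 2838 CPM, and the ranges overlapped in both experiments.

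The mesangial and tubule lists also held genes with differences in both directions. Of 6 mesangial and fibroblast markers Pdgfrb passed lower at low stretch (log2 fold change -0.56, adjusted p = 0.0199, edgeR). On the same list Acta2, the smooth muscle actin, was at 1523 ± 375 and 2832 ± 1046 CPM in experiment 1 and at 4546 ± 2202 and 9014 ± 2108 CPM in experiment 2, without and with stretch (adjusted p = 0.136 and 0.269, edgeR), and Col1a1 did not exceed 1.23 CPM (adjusted p = 0.279 and 0.0886, edgeR); both were higher within runs in 9 of 9 stretched cultures. The sum of that list lay between 1247 and 1979 CPM in unstretched and between 1505 and 3991 CPM in low-stretch cultures, and between 2606 and 7022 CPM and between 6674 and 10414 CPM in experiment 2. Of 6 tubule markers Lrp2 passed lower at low stretch (log2 fold change -0.65, adjusted p = 0.0227, edgeR), while Slc12a1 was at 0.375 ± 0.0917 and 0.612 ± 0.110 CPM there, higher within runs in 6 of 6 cultures (adjusted p = 0.0852, edgeR). Of 6 parietal epithelial markers 4 were tested at high stretch, with 1 higher and 3 lower. Cldn1 and Pax2 were lower within runs in 3 of 3 cultures there, without passing. Cd44 passed higher at high stretch (log2 fold change 1.48, adjusted p = 0.025, edgeR), and at 1.72 without unstretched replicate 3 (adjusted p = 0.00207). Without that replicate Csf1r was at -2.03 (adjusted p = 0.000994, edgeR). With 1 sample left out at a time these calls held in 9 of 9 fits for Csf1r at low and 5 of 6 at high stretch, 2 of 6 for Wt1, 7 of 9 for Pdgfrb, 5 of 9 for Lrp2 and 3 of 6 for Cd44. The 6 endothelial markers summed to at most 0.380 CPM and none passed. At an unadjusted p under 0.05 edgeR gave 0 of 3 tested at low and 1 of 2 at high stretch. Over all genes tested that share was 14.6% at high stretch, and it is not given here for low stretch.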

How the data were processed

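RNA was measured in 15 cultures of the SVI line from stranded poly(A) libraries read as pairs, per the labels' protocols. The deposited gene table holds raw counts and the deposited transcript table holds TPM. The submitters' processing notes name STAR 2.7.5c, featureCounts from Subread 2.0.0, Salmon 1.9.0, DESeq2 1.38.3 and the mouse build mm39, with no role or order, and whether strand was used in counting is not given in the sources used here. The authors' TPM keep no depth, so they served for order and shares. Levels in TPM that are set side by side between groups were not tested. An exact 0 in them can be a failed estimate.

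Symbols and transcripts came from GENCODE M21, which is on another build, so gene coordinates are not printed. It matched 52083 genes, leaving at most 0.231% of a sample's counts without a symbol, and 137189 of 140789 transcripts. Promoter windows came from RefSeq, GRCm38.p6.

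Counts were tested in R 4.3.3 with edgeR 4.0.16 (TMM, filterByExpr, glmQLFit, glmQLFTest, Benjamini-Hochberg at 0.05 over all genes), each stretched group with the unstretched group of its experiment and without a block. The difference between effects used all 15 samples. CPM used TMM-scaled library sizes. The standard error was the fold change divided by the square root of F, and intervals are 95%. Transcript usage was tested with limma 3.58.1 on the TPM of each transcript divided by that of its gene's remaining transcripts, on a log2 scale with 0.1 added to both, for genes with a mean of at least 1 TPM and transcript fractions from 0.05 to 0.95. For likeness, log2 CPM had a prior count of 2. The scripts were tested on simulated data.

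The 8 genes and the lists were chosen with earlier results of these data known. Named by rule were the 8 genes, listed genes that passed, the 3 highest per list of chemokines and receptors, and the 3 most alike. Other listed genes given with values were picked for their role. Alternatives were DESeq2 1.42.0, RLE size factors, no filter, a mean count of at least 100, 1 fit of all samples, blocks, other pseudocounts and filters for TPM, and each sample left out in turn.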

Additional observations from a re-analysis of the deposited data

Results flagged for a closer look

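Among 23 sets of 4 to 10 values checked for a sample far from the others, 2 held one, and chance gives about 1 in 20. Cxcl5 was at 0.0791 CPM in low-stretch replicate 1, and the nearest of the other low-stretch cultures was at 0.0233 CPM. Ccl20 was at 0.0327 CPM in low-stretch replicate 4, and the nearest was at 0.0133 CPM. Both values rest on few counts.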

How the results depend on the processing

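The low-stretch calls of Cxcl12 and Cx3cl1 held with DESeq2, RLE size factors, no filter, a mean count of at least 100 and a fit of all 15 samples. They also held with a block by the runs of neighbouring codes, which no label names as batches. Each of these had 2 of the chemokines passing. The replicate block gave 0, in a fit without the unpartnered low-stretch replicates 4, 5 and 6. Leaving out 1 sample at a time gave 0 to 2, with 0 only without unstretched replicate 1. At high stretch the count of 0 became 1 with all 15 samples in the fit (Cx3cl1), 2 with the replicate block and 2 with the run block (Ccl2 and Cx3cl1 in both, since the numbers are the runs there), and 0 to 2 with 1 sample left out. Between the unstretched groups the count was 1 to 3 with 1 sample left out, and 3 without unstretched replicate 3 of experiment 2. The difference between effects gave 0 and the transcript tests gave 0 under all alternatives run. Over all genes the number called moved too, from 220 to 6106 at low stretch and from 14 to 1546 at high stretch. Between the unstretched groups it ran from 9312 to 15698. Why a count moved was not tested.

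In experiment 1 replicate numbers did not pair the samples. Same-numbered samples had a mean correlation of deviations of -0.0709 (-0.437 to 0.361), against 0.0148 for differently numbered ones. Samples of the same run had a mean of 0.434 there, against -0.216 for samples of different runs. In experiment 2 the numbers are the runs. Matched samples had a mean of 0.177 (-0.159 to 0.448) there, against -0.0955 (-0.538 to 0.436) for unmatched ones. These ranges overlapped, so the values cannot show whether the runs pair the samples of experiment 2.

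Of 690 alternative fold changes of the 8 genes and of the listed and marker genes that passed, 589 kept direction and call, and 28 changed sign, all of them in values that did not pass. For Cxcl1 at low stretch the run block gave -0.060, and for Cxcl16 the replicate block gave a difference between effects of -0.075. Ccl7 between unstretched groups was 0.017 with DESeq2, 0.030 with RLE size factors, 0.025 with no filter and 0.018 with all 15 samples. With 1 sample left out, log2 values at low stretch ranged from -0.24 to 0.029 for Ccl7, -0.21 to 0.27 for Cxcl1 and -0.067 to 0.53 for Cxcl16. At high stretch they ranged from -0.70 to 0.074 for Ccl7 and -1.01 to 0.19 for Cxcl1. The difference between effects ranged from -0.86 to 0.091 for Ccl2, -0.64 to 0.15 for Ccl7, -1.05 to 0.18 for Cxcl1 and -0.22 to 0.38 for Cxcl16. Between unstretched groups the ranges were -0.44 to 0.30 for Ccl7, -1.10 to 0.10 for Cxcl1, -1.80 to 0.14 for Cxcl5 and -0.22 to 0.062 for Cxcl12.

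For transcript usage at low stretch, a pseudocount of 1 TPM gave -0.027 for Cxcl1-201, 0.027 for Cxcl1-202 and -0.36 for Cx3cl1-201, whose replicate block value was -0.081. A pseudocount of 0.01 TPM at high stretch gave 0.11 for Cxcl1-201 and -0.11 for Cxcl1-202. With 1 sample left out, usage at low stretch ranged from -0.18 to 0.27 for Cxcl1-201, -0.27 to 0.18 for Cxcl1-202 and -0.0044 to 0.29 for Cx3cl1-201. Depth limits Cxcl5, Ccl20 and Ccrl2, which rest on 67 counts or fewer per library.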

Other observations

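Ppbp, a neutrophil attractant that lies between Cxcl5 and Cxcl1 in the annotation, was singled out after its values were seen. It reached 10.7 CPM in 1 low-stretch culture, and its mean was 2.59 ± 4.09 CPM (SD, n = 6) in that group, 0.610 ± 0.544 CPM in the unstretched cultures of experiment 1, 0.260 ± 0.156 CPM in those of experiment 2 and 0.496 ± 0.271 CPM at high stretch. The log2 fold change at low stretch was 2.07 (95% interval -0.77 to 4.92, adjusted p = 0.358, edgeR) and at high stretch 0.89 (adjusted p = 0.548, edgeR). Within runs Ppbp was higher in 6 of 6 low-stretch cultures, by 0.33 to 3.16, and in 3 of 3 high-stretch cultures, by 0.87 to 1.03. Cxcl3, Cxcl15 and Pf4 from the same stretch of the annotation had at most 1, 3 and 4 counts in any library.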
